A study of Mus musculus with 2 samples.

Results

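The 10 genes described here mark alveolar type 1 cells, and they were followed in whole lung of C57BL/6 mice, an inbred laboratory strain, with 1 library for control mice and 1 for mice exposed to PM2.5, fine airborne particles. The genes are Ager, Gprc5a, Pdpn, Emp2, Clic5, Akap5, Rtkn2, Igfbp2, Spock2 and Hopx, and they were taken by symbol, through the GENCODE M21 annotation, from the 37315 gene identifiers of the count files. All 10 were found. The labels give no dose, route, sex or age and no number of animals per library, and both titles carry the number 12 before a W that is not spelled out. No genetic alteration is named for either library.

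Type 1 cells are the thin, flat cells that line most of the gas-exchange surface of the alveolus and lie against the capillaries. Type 2 cells, which make surfactant, can divide and give rise to type 1 cells after injury, and the transcription factor Nkx2-1 together with the Hippo pathway effectors Yap1 and Wwtr1 (TAZ) is known to act in type 1 cell fate. In whole tissue, fewer type 1 cells and less of an RNA in each cell cannot be told apart.

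The control library held 62788045 counts and the PM2.5 library 57435027, and the 10 genes took 0.850% and 0.692% of them. Levels of a gene are given as CPM, the count per 1000000 counts of the library after scaling by the TMM method, which assumes that most genes do not differ. With 1 library per group there is no replicate check and no test. Each ratio, PM2.5 over control, carries an exact 95% interval that covers counting error only, and it describes these 2 libraries, not the exposure. A gene is called higher or lower where the ratio reached 1.5-fold and its interval excluded equality.

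After PM2.5 exposure most of the type 1 cell genes were at lower levels, but by unequal amounts. Spock2, Akap5, Gprc5a and Clic5 were called lower, at 2.05-fold, 1.80-fold, 1.75-fold and 1.75-fold. Ager, Emp2, Pdpn and Rtkn2 were lower by less than 1.5-fold. Igfbp2 was called higher at 1.61-fold, a call that was lost once the trend of the ratios with transcript length was removed, and Hopx was 1.20-fold higher. Thus 4 of 10 were called lower and 1 of 10 higher, and the median log2 ratio was -0.48. Among all 14518 genes that averaged 1 CPM or more, 19.1% were called lower and 14.9% higher, with a median log2 ratio of -0.09. All 10 type 1 cell genes lie above a mean of 100 CPM, and abundant genes were lower in general. Of the 2166 genes above that level, 34.7% were called lower and 3.92% higher, with a median of -0.41. The share and the median of the type 1 cell genes were therefore near those of other abundant genes. The scaling moves the background: with library totals, which add 0.23 to every log2 ratio, 2 of the 10 genes were called lower, against 18.2% of the abundant genes. The split of all called genes also moved, from 43.8% higher with TMM to 59.7% with the upper quartile, which adds 0.14, and 70.6% with library totals.

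**Figure D1:**
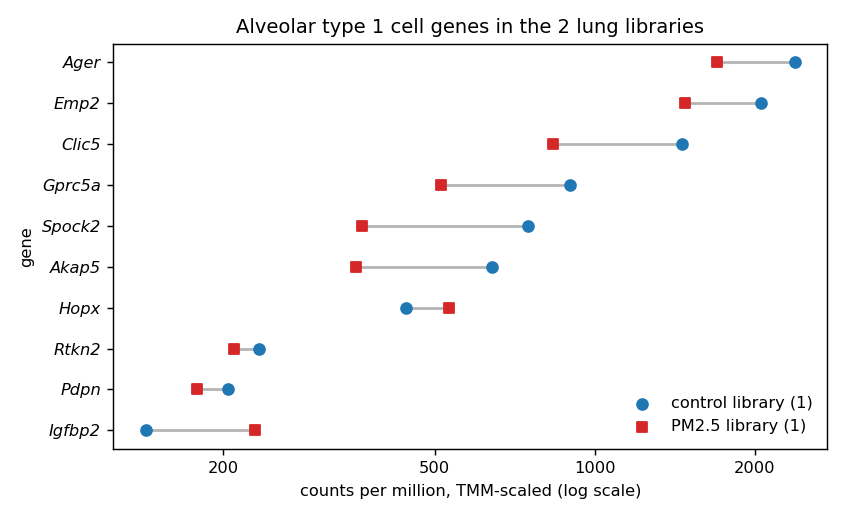
Level of each gene in the libraries of control (circles) and PM2.5 (squares), in TMM-scaled CPM on a log axis, with 1 library per group and no error bars. Igfbp2 and Hopx are the genes whose square lies to the right of the circle, and Ager has the highest level in both libraries, at 2381 and 1695 CPM.

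The stretches just before the transcription start are shown for 4 of the 5 genes called lower or higher, where the libraries differed most. They come from the RefSeq promoter windows of 250 bases before to 50 after each start (build GRCm38.p6), which held 8 of the 10 genes. Rtkn2 and Gprc5a had no entry. Each is printed 5′ to 3′ on the strand of its gene, up to its start or the first annotated exon base. Capitals mark GGGCGG, the GC box that factors of the SP and KLF families bind, and GCGTG, the core of the element bound by the aryl hydrocarbon receptor (AhR), on either strand, so that CCGCCC and CACGC are marked as well.
Igfbp2 (chr1:72824230-72824479, plus strand): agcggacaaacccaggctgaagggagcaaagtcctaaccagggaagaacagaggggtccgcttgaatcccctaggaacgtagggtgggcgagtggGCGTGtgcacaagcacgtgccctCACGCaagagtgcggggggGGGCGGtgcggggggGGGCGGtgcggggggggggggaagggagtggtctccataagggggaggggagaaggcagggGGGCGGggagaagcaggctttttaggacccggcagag
Spock2 (chr10:60106007-60106218, plus strand): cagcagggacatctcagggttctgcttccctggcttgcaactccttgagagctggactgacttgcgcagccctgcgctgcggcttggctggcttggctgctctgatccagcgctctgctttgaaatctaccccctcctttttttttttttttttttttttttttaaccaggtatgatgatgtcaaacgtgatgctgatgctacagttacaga
Akap5 (chr12:76324641-76324890, plus strand): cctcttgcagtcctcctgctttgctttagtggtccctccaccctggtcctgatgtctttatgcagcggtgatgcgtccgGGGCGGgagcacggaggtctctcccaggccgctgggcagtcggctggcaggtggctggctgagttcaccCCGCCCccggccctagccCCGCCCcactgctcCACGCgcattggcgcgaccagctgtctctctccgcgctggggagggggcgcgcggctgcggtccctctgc
Clic5 (chr17:44188322-44188571, plus strand): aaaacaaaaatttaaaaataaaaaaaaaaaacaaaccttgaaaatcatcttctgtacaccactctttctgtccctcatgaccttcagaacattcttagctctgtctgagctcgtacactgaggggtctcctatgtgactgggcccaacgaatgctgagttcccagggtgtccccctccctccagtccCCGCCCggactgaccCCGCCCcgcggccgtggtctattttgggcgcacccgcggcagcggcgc
Igfbp2, the gene that was higher, held 3 GC boxes and 2 AhR cores in this stretch, and Akap5, which was lower, held 3 and 1. Clic5 held 2 GC boxes, and Spock2 none of these strings. No capitalised matches overlapped. Igfbp2 has another annotated start, whose stretch (chr1:72825137-72825321) is not printed and held none of these strings. An AhR core lay across that start. The 8 genes have 10 whole windows. A GC box was in 5 of the 10 and in 35.7% of 32851 windows of the same length. An AhR core was in 4 of the 10 and in 32.4% of all windows. 2 further strings were searched on both strands. GGAATG, the core bound by TEAD factors, the DNA-binding partners of YAP and TAZ, was in none of the 10 windows of the 8 genes and in 14.7% of all windows. CAAGTG, a core bound by NKX2-1, was in 2 of the 10 windows and in 13.6% of all windows. These were windows of Hopx and Spock2, and it lay after the start in both. A match is a string of letters and not a measured site.

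2 of the genes encode receptors of the cell surface. Ager encodes RAGE, an immunoglobulin-family receptor with many ligands that type 1 cells carry on their basal side. Ager (ENSMUSG00000015452, GRCm38 chromosome 17, 34597862 to 34600936, plus strand) had 138053 control and 105409 PM2.5 counts, or 2381 and 1695 CPM, in that order here and hereafter. It was 1.41-fold lower (1.39 to 1.42), short of the size for a call. Gprc5a encodes an orphan receptor that retinoic acid induces and that is known as a lung tumour suppressor in mice. Gprc5a (ENSMUSG00000046733, chromosome 6, 135065651 to 135084709, plus strand) had 52156 and 31898 counts, or 899.6 and 513 CPM, and was 1.75-fold lower (1.73 to 1.78). It therefore differed more between the libraries than Ager did, beyond counting error.

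Pdpn and Emp2 encode other proteins of the cell membrane. Podoplanin, the product of Pdpn, is a mucin-type glycoprotein that binds the platelet receptor CLEC-2 and links to the actin cytoskeleton through ezrin and moesin. Pdpn (ENSMUSG00000028583, chromosome 4, 143267431 to 143299564, minus strand) had 11835 and 11076 counts, or 204 and 178 CPM, a ratio of 0.872 (0.850 to 0.895). Its direction turned with library totals, to a log2 ratio of 0.03. Lymphatic endothelium and mesothelium also express Pdpn. Of the 8 lymphatic markers that passed 1 CPM, Pdpn among them, 4 were called lower and 1 higher, with summed levels of 841 and 598 CPM. Of 11 mesothelial markers none were called lower and 1 higher, with sums of 601 and 644 CPM. Of all tested genes 19.1% were called lower and 14.9% higher. Msln, Upk1b, Prox1 and Lyve1 were detected in both libraries, and no listed marker of these cells was at 0. Their part in the value of Pdpn was not tested. Emp2 (ENSMUSG00000022505, chromosome 16, 10281749 to 10313968, minus strand) encodes a small membrane-spanning protein of the PMP22 family. It had 119077 and 91953 counts, or 2054 and 1478 CPM. It was 1.39-fold lower (1.38 to 1.40), close to Ager.

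Clic5, Akap5 and Rtkn2 encode proteins beneath the membrane. Clic5 is a chloride intracellular channel protein that associates with ezrin and actin, and endothelium expresses it too. It lies on chromosome 17 (ENSMUSG00000023959, 44188584 to 44280172, plus strand) and had 84506 and 51862 counts, or 1458 and 834 CPM, 1.75-fold lower (1.73 to 1.77). Akap5 encodes a scaffold that holds protein kinase A and the phosphatase calcineurin at the membrane. It lies on chromosome 12 (ENSMUSG00000021057, 76324891 to 76334153, plus strand), with 37179 and 22122 counts, or 641 and 356 CPM, 1.80-fold lower (1.77 to 1.83). Rtkn2 (ENSMUSG00000037846, chromosome 10, 67979570 to 68059740, plus strand), a gene of the rhotekin family, was nearly level. Its 13544 and 13055 counts, or 234 and 209.9 CPM, gave a ratio of 0.898 (0.877 to 0.920), and with library totals the log2 ratio was 0.08. The type 1 cell genes of this class thus ranged from near equality to almost the largest difference of the 10.

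Spock2 and Igfbp2 encode secreted proteins and stood at opposite ends. Spock2 encodes testican-2, an extracellular proteoglycan of the SPARC family. Spock2 (ENSMUSG00000058297, chromosome 10, 60106219 to 60135198, plus strand) had 43333 and 22645 counts, or 747 and 364 CPM, and was 2.05-fold lower (2.02 to 2.09). It was the 1 gene of the 10 past 2-fold, a size at which 6.04% of all tested genes were lower and 7.25% higher. Igfbp2 encodes a binding protein of insulin-like growth factors and has been used as a marker of fully differentiated type 1 cells. Igfbp2 (ENSMUSG00000039323, chromosome 1, 72824503 to 72852474, plus strand) had 8293 and 14290 counts, or 143 and 229.7 CPM, and was 1.61-fold higher (1.56 to 1.65). With the length trend removed its log2 ratio went from 0.68 to 0.34, short of a call. Per transcript length, the level of Igfbp2 was 0.767 of that of Spock2 under control conditions and 2.53 times it under PM2.5. Fat tissue also expresses Igfbp2. All 9 fat markers were called higher under PM2.5, against 14.9% of all tested genes. Their summed levels were 112 and 762 CPM, with 8 and 4855 counts of Ucp1. The part of fat tissue in the Igfbp2 value was not tested.

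Hopx encodes a small homeodomain protein that does not bind DNA itself and acts as a cofactor in the nucleus. It lies on chromosome 5 (ENSMUSG00000059325, 77086988 to 77115121, minus strand) and had 25629 and 33110 counts, or 442 and 532 CPM, 1.20-fold higher (1.19 to 1.22). Heart muscle, which mice carry around the pulmonary veins, expresses Hopx as well. Of 12 cardiac markers 6 were called higher and 2 lower, against 14.9% and 19.1% of all tested genes. Their sums were 444.5 and 454 CPM, and the part of these cells was not tested. The antisense gene Hopxos shares 412 exon bases with Hopx and had 30 and 185 counts, a ratio of 5.75 (3.89 to 8.76). It was looked up after the values of Hopx were seen. The strand setting of the counting is not given in the sources used here, so the reads of both genes cannot be told apart where they overlap. Rtkn2 also shares exon bases, 216 of them, with an antisense gene, Gm16212, which had 3 and 5 counts. The other 8 genes share no exon base with another annotated gene.

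**Figure D2:**
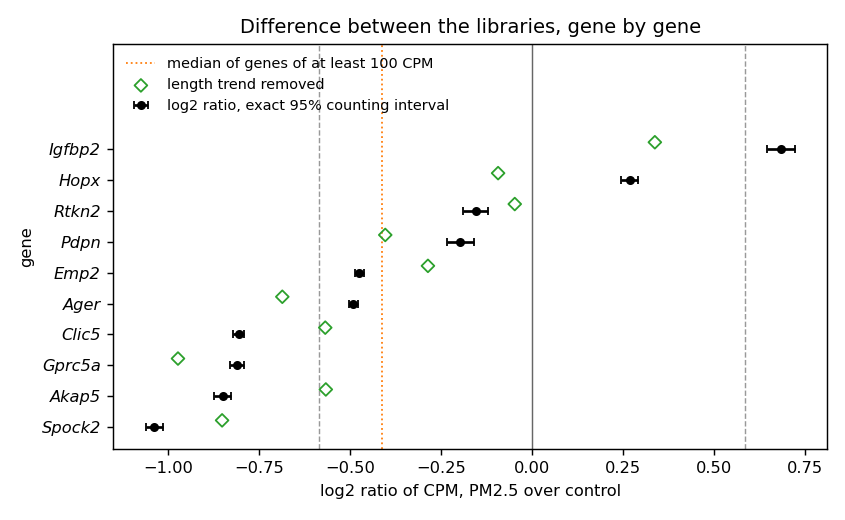
Log2 ratio of CPM, PM2.5 over control, for each gene (black points with exact 95% counting intervals) and after removal of the trend with transcript length (open diamonds). Dashed lines mark 1.5-fold in each direction and the dotted line the median of genes of at least 100 CPM, -0.41. Igfbp2 lies right of the upper line, and Spock2, Akap5, Gprc5a and Clic5 lie left of the lower one.

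The order of levels, which can be set across genes only per length, differed between the libraries. The measure is counts per kilobase of the longest transcript, with the same total in each library. All 10 genes were detected in both libraries, and on this measure Ager ranked 28 among all tested genes in the control library and 44 in the other. Under control conditions the order was Ager (2088), Gprc5a (710), Emp2 (642), Hopx (577), Clic5 (409), Spock2 (235), Pdpn (185), Igfbp2 (180), Akap5 (158) and Rtkn2 (86.7). Under PM2.5 it was Ager (1485), Hopx (694), Emp2 (462), Gprc5a (405), Igfbp2 (289), Clic5 (234), Pdpn (161), Spock2 (114), Akap5 (87.4) and Rtkn2 (77.8). Hopx had passed Emp2 and Gprc5a, and Igfbp2 had passed Pdpn, Spock2 and Clic5, while Ager, Emp2, Pdpn, Akap5 and Rtkn2 held their places. Without replicates, the places of genes with near values, such as Pdpn and Igfbp2 in the control library, are not separated. With the union of all annotated exons as length, Hopx came before Emp2 and Akap5 before Igfbp2 in the control library. In the PM2.5 library Gprc5a (469) then came before Emp2 (326) and Pdpn (187) before Clic5 (181). By this length Pdpn and Akap5 did not hold their places, while Ager remained first and Rtkn2 last in both libraries. Relative to Ager, the level of Hopx per length was 0.276 (control) and 0.467 (PM2.5), and that of Igfbp2 0.0862 and 0.195.

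Transcript length moved with these differences. Igfbp2 and Hopx, the genes that were higher, have the shortest transcripts of the 10, at 1307 and 1261 nt, while Akap5, Clic5 and Spock2 have some of the longest, at 6687, 5862 and 5238 nt. Across the 10 genes, which share both libraries, Spearman's rank correlation between length and log2 ratio was -0.71, and across 14387 tested genes with a length it was -0.37. With the union of all annotated exons as length, the correlations were weaker, at -0.49 and -0.31. With the trend over all genes removed, Igfbp2 had a log2 ratio of 0.34 in place of 0.68 and was no longer called, and Hopx had -0.09 in place of 0.27. Clic5 and Akap5 then stood at -0.57 each, just short of 1.5-fold. Gprc5a, with a transcript of 2083 nt, moved the other way, from -0.81 to -0.97, and Ager, with 1876 nt, from -0.49 to -0.69, past 1.5-fold. Spock2 remained lower at -0.85. The median of the 10 was -0.49 after this step, with 3 called lower and none higher. The share of all tested genes called after this step is not given here, so these counts have no background beside them. What lies behind the trend was not tested.

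**Figure D3:**
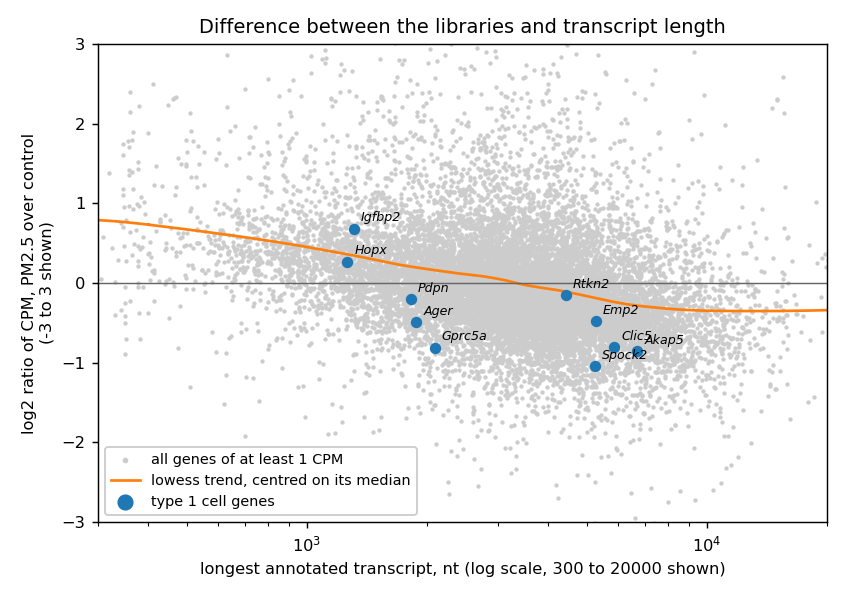
Log2 ratio of CPM, PM2.5 over control, against the length of the longest annotated transcript on a log axis, for all tested genes (grey), with the trend across genes (line) and the 10 type 1 cell genes (named). Igfbp2 and Hopx, of 1307 and 1261 nt, lie near the high end of the trend, and Gprc5a and Spock2 lie below it.

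Other genes of type 1 cells had a median log2 ratio near that of abundant genes in general. Of 34 further genes, 15 (44.1%) were called lower and 1 higher, with a median log2 ratio of -0.43. Of these 34 genes 27 lie above 100 CPM, and 13 of the 27 were called lower. At that level 34.7% of all genes were called lower, with a median of -0.41, against 19.1% of all tested genes. With library totals 9 of the 34 were called lower and 2 higher, against 9.9% and 23.8% of all tested genes. Among the most abundant per length, the caveolin gene Cav1, which endothelium shares, had 129264 and 91298 counts and was 1.52-fold lower (1.51 to 1.53). Sec14l3 was level with 89613 and 94923 counts, a ratio of 0.987 (0.978 to 0.996), and Pmp22 was 1.32-fold lower. The water channel gene Aqp5 (15289 and 17665 counts) and Gramd2 had log2 ratios of 0.11 and 0.19. The lowest was Col4a3, an alveolar basement membrane collagen, with 29838 and 10760 counts, 2.98-fold lower (2.91 to 3.04). The gene called higher was Vegfa, the growth factor that signals from type 1 cells to capillaries, with 29694 and 55311 counts, 1.74-fold higher (1.71 to 1.76). 6 genes of the list encode matrix proteins (Col4a3, Col4a4, Lama3, Lamb3, Agrn and Timp3). All 6 were called lower, with a median of -1.39, and of the remaining 28 genes 9 were lower, with a median of -0.32. That division was made after the values were seen.

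**Figure D4:**
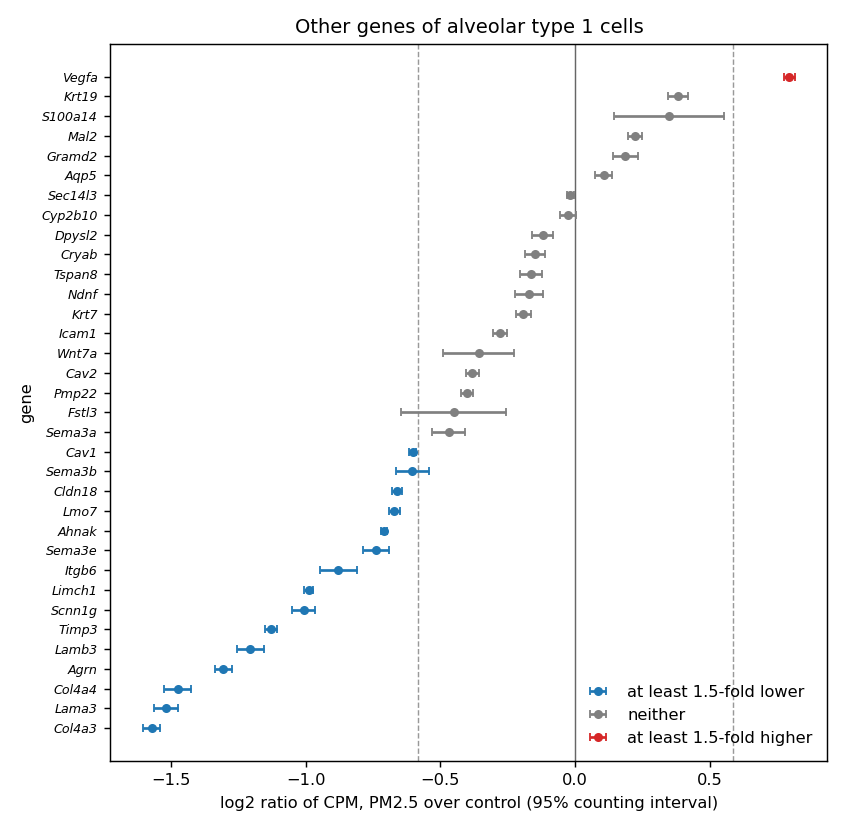
Log2 ratio of CPM, PM2.5 over control, with exact 95% counting intervals for 34 other genes of type 1 cells, coloured by whether they reached 1.5-fold (dashed lines). Col4a3, Lama3, Col4a4 and Agrn stand at the low end and Vegfa at the high end.

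Of 24 regulators of type 1 cell fate, 17 were called lower and none higher, with a median log2 ratio of -0.68, where 19.1% of all tested genes and 34.7% of those above 100 CPM, the level of 11 of the 24, were called lower. The count depends on the scaling. Under the upper quartile 10 were called lower, against 13.2% of all tested genes, and under library totals 9, against 9.9%. All 24 lay below equality with TMM, and Cebpa and Foxa1 lay above it with library totals. Nkx2-1 had 11344 and 9905 counts, a ratio of 0.814 (0.792 to 0.836), and Cebpa, which acts in type 2 cells, 0.904. The Hippo pathway scaffolds Amotl2 and Amot were 2.37-fold and 3.11-fold lower. Yap1 had 10054 and 6030 counts and Wwtr1 16499 and 8553, and they were 1.79-fold and 2.07-fold lower. They were named for their role after their values were seen, and many other lung cells express both. Of 20 genes known as targets of YAP and TAZ, 13 were called lower and none higher, with a median of -0.80, and 10 of the 20 lie above 100 CPM. Amotl2 and Lats2, both called lower, are on this list and on that of the regulators. With library totals 10 were called lower and 3 higher (Ankrd1, F3 and Gadd45a), against 9.9% and 23.8% of all tested genes. Ccn2 was 1.79-fold lower and Fjx1 4.19-fold lower, whereas Ccn1 and Ankrd1 had ratios of 1.26 and 1.34. The median lengths of both lists, 3879 and 4346 nt, are above that of the 10 genes, and with the length trend removed the medians were -0.68 and -0.61. Many of these genes are also active in endothelium or fibroblasts, many of whose markers were lower as well, as given further on.

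Genes of the state through which type 2 cells pass on the way to type 1 had a balance of calls that depended on the scaling. Of 16 such genes 2 were called higher and 2 lower, with a median of 0.10 that turned to -0.14 with the length trend removed. With the upper quartile and with library totals 5 were called higher and 2 lower, with medians of 0.24 and 0.34, where 19.5% and 23.8% of all tested genes were called higher. Sfn, an epithelial 14-3-3 protein, had 300 and 1308 counts and was 4.06-fold higher (3.58 to 4.62). The galectin gene Lgals3, which macrophages also express, was 1.66-fold higher. With the length trend removed its log2 ratio went from 0.74 to 0.42, short of a call. The keratin Krt18 and Anxa1 had ratios of 1.06 and 1.43. Fn1 was 3.43-fold lower.

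Partners of the type 1 cell proteins were read beside them. Of all tested genes 14.9% were called higher and 19.1% lower, and of those above 100 CPM 3.92% and 34.7%. Among ligands and signalling partners of RAGE, 6 of 14 were called higher and 4 lower. Their median was 0.22, and it turned negative, to -0.09, with the length trend removed. The ligands S100a8 and S100a9, which neutrophils make, were 3.46-fold and 3.43-fold higher, with 7049 and 26141 counts and 9896 and 36454 counts. Both genes are also among the leukocyte markers given further on. S100a11 had a ratio of 1.40. Diaph1, which binds the inner part of RAGE, was 1.80-fold lower. The receptor gene Ager was thus lower, short of 1.5-fold, where S100a8 and S100a9 were higher. Among partners of podoplanin, 1 of 9 was called higher and 1 lower. Clec1b, the gene of CLEC-2, had 464 and 877 counts, a ratio of 1.76 (1.57 to 1.98), Msn and Ezr had ratios of 0.729 and 0.692, Cd9 was level with 21789 and 23391 counts, and Rdx was 2.20-fold lower.

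In the insulin-like growth factor axis, to which Igfbp2 belongs, 2 of 13 genes were called higher and 4 lower, with a median of -0.40. For this list and the others of this paragraph, the shares over all tested genes are 14.9% higher and 19.1% lower. Igfbp3 and Igfbp6 were higher with Igfbp2, at 2.16-fold and 1.67-fold. With the length trend removed their log2 ratios were 0.99 and 0.33, the latter short of a call. Igfbp7, which endothelium expresses strongly, was 1.64-fold lower, Igfbp4 had a ratio of 0.806, and Pappa, a protease that cleaves binding proteins, was 2.60-fold lower on 228 and 94 counts. Among family relatives, 3 of 12 were called lower and 1 higher, with a median of -0.34. Sparc, a matrix relative of Spock2, was 2.78-fold lower on 218948 and 84530 counts, Sparcl1 had a ratio of 0.697 and Emp3 was 1.52-fold higher. With the length trend removed the log2 ratio of Emp3 went from 0.60 to 0.06, short of a call. Of 11 genes of retinoic acid handling, the pathway that induces Gprc5a, 2 were called higher and 1 lower, with a median of -0.07 that turned to 0.16 with library totals. Aldh1a3, a retinaldehyde dehydrogenase gene, was 1.65-fold higher (1.21 to 2.27) on 65 and 115 counts. The receptor gene Rxra was 1.99-fold lower, and Aldh1a1, Dhrs3 and Rarg had ratios of 1.16, 0.956 and 0.788.

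By median log2 ratio, the type 1 cell genes lay between the other epithelial lists and the capillary lists. For the counts that follow, 19.1% of all tested genes were called lower and 14.9% higher. Above 100 CPM the shares were 34.7% and 3.92%, and with library totals 9.9% and 23.8% of all tested genes. The lists differ in abundance, and the median of all genes above 100 CPM was -0.41, against -0.09 for all tested genes. Of 12 general epithelial markers none were called in either direction, with a median of -0.12 that became 0.11 with library totals and sums of 1175 and 1039 CPM. Their median was -0.23 with the length trend removed. Only 4 of these 12 lie above 100 CPM, where all 10 type 1 cell genes lie. Of 18 type 2 markers, 15 of them above 100 CPM, 3 were called higher and 4 lower, with a median of 0.05. Their sums were 35290 and 40170 CPM. Sftpc (14440 and 18640 CPM) and Lyz2 (4654 and 7059 CPM) made up a large part of these sums, and 9 of the 18 lay below equality. The balance turned with the scaling: with library totals 6 were called higher and 1 lower, with a median of 0.28, and with the length trend removed 2 higher and 4 lower, with a median of -0.20. The summed level of the 10 type 1 cell genes was 9204 and 6389 CPM, 1.44-fold lower. Endothelial markers were called lower in 12 of 16 (7 with library totals) and higher in none, with a median of -0.77 and sums of 9347 and 4923 CPM. Of these markers 13 lie above 100 CPM, and 10 of the 13 were called lower. Aerocyte markers, of the capillary cells that face type 1 cells, were lower in 6 of 11 and higher in none. Their median was -0.76 and their sums were 3840 and 2340 CPM, and Kdr is on both this list and the endothelial one. Fibroblast markers were lower in 8 of 14 and higher in 4, with a median of -1.07 and sums of 11060 and 8175 CPM. Club cell and leukocyte markers were called higher in 5 of 10 and 8 of 12, with none lower. Their sums were 22780 and 34940 CPM and 745 and 1886 CPM. Their medians were 0.54 and 0.70, and 0.25 and 0.78 with the length trend removed. None of these lists had a marker at 0 in either library. Since CPM are shares of a library, what other cells add or lose moves the value of every type 1 cell gene, and its part here was not tested. With the median of the general epithelial or of the type 2 markers set to no change, alternatives chosen after seeing the data, the same counts of 4 lower and 1 higher were found among the 10, with medians of -0.37 and -0.54.

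**Figure D5:**
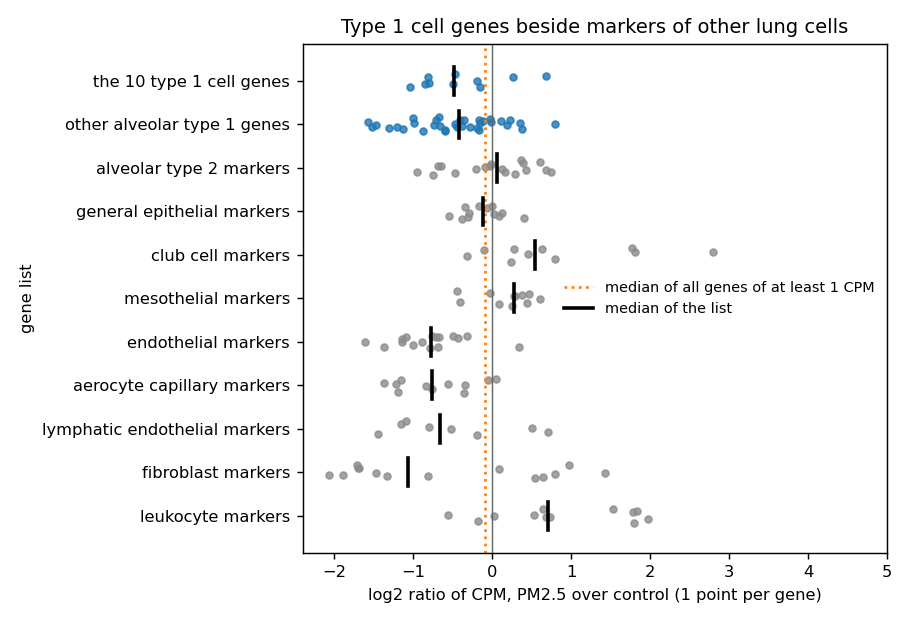
Log2 ratio of CPM, PM2.5 over control, for the 10 type 1 cell genes and 10 other lists, with 1 point per gene, bars at the list medians and a dotted line at the median of all tested genes, -0.09. The type 1 cell medians, -0.48 and -0.43, lie between those of the type 2 and general epithelial markers, 0.05 and -0.12, and that of the endothelial markers, -0.77.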

How the data were processed

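The assay was sequencing of messenger RNA from mouse lung, in 2 libraries grouped by the exposure in the labels. As deposited, the values are raw read counts for each Ensembl gene. The tools in the submitters' processing notes are HTSeq 0.6.0 and TopHat2 2.1.1, and the build is mm10. Strand setting and annotation of the counting: not given in the sources used here. Symbols, positions and lengths came from GENCODE M21. TMM factors from edgeR 4.0.16 (0.923 and 1.08) scaled the library sizes. Exact 95% intervals are Clopper-Pearson bounds on the PM2.5 share of both libraries' counts and cover counting error alone. PCR reads may repeat a molecule, which these bounds do not allow for. The 10 genes and the 20 other lists were chosen with earlier results of these data known. Of each list, the 3 genes of highest level per length and those with the highest and lowest ratio could be named, and cell type lists are mostly given by summaries. Other genes with values, such as Aqp5, Gramd2, Ezr, Hopxos, Yap1 and Wwtr1, were chosen after their values were seen. Muc16 was listed but had no match. Some genes and 1 list are not reported here, and the counts and medians of the lists given leave them out. Alternatives were size factors of DESeq2 1.42.0, upper quartile and library totals, TMM with the 100 most abundant genes left out, other filters and sizes, thinning, and removal of the length trend (lowess). Python 3.11.15 and R 4.3.3 were used.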

Additional observations from a re-analysis of the deposited data

How the results depend on the processing

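With other scalings the median log2 ratio of the 10 type 1 cell genes was -0.25 (library totals), -0.34 (upper quartile) and -0.50 (DESeq2 size factors), and with the general epithelial or type 2 median set to no change it was -0.37 or -0.54. Their count called lower was 2 with library totals, where Clic5 and Gprc5a were at -0.58 each, and 1 at a size of 2-fold. The count called higher was 0 at 2-fold and 0 with the length trend removed. The median was below 0 under all 12 alternatives. Spock2 was called lower and Emp2 lay short of 1.5-fold under each of them. Hopx, Pdpn and Rtkn2 changed sign under 1 alternative each, the length trend for Hopx and library totals for the others. Over all tested genes, 1440 were called lower and 3456 higher with library totals, and 877 lower and 1053 higher at 2-fold, while the count called higher was 4471 with no filter and 866 at a mean of at least 10 CPM. With library totals the count called lower was 9 of the other type 1 genes, 9 of the regulators and 7 of the endothelial markers, and at 2-fold it was 7, 6 and 6. At 2-fold, 6 targets of YAP and TAZ were called lower. The regulators called lower were 11 with the general epithelial median set to no change. With the length trend removed the median log2 ratio was below 0 for the transitional genes (-0.14), the RAGE ligands and partners (-0.09) and the type 2 markers (-0.20), and at a mean of at least 10 CPM for the last pair (-0.03 and -0.02). The retinoic acid median was above 0 with library totals (0.16), the upper quartile (0.07), no filter (0.23) and the general epithelial median set to no change (0.05). The general epithelial median was above 0 with library totals (0.11) and the upper quartile (0.02). With library totals 4 mesothelial markers were called higher and 1 family relative lower, and with the length trend removed 6 family relatives were called lower. For counts with the length trend removed or with a list median set to no change, no share over all tested genes is given here. No paired analysis was possible because each group has 1 library. Depth limits these values little, and the lack of replicates limits all of them.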
